A study of Mus musculus with 6 samples.

Results

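The genes described are the 7 members of the mouse 14-3-3 family: *Ywhaz*, *Ywhab*, *Ywhae*, *Ywhag*, *Ywhah*, *Ywhaq*, and *Sfn*. They were chosen by name, as the complete family, out of 32285 genes in the count tables. No measured value decided which genes belong, although earlier results of these data were known when the family was chosen. They were followed through single-cell RNA-Seq of islets in 3 libraries per genotype, WT or β14-3-3ζ–KO, from C57/BL6 animals of 12 to 14 weeks. The labels list these as separate samples and do not say how many mice gave islets to each, so that p-values measure the spread between these libraries. KO mice carried *Ywhaz* alleles with LoxP sites around exon 4 together with *Ins1*-CreThor, a Cre recombinase driven from the insulin 1 gene and so active in β cells. WT mice were littermates that carried the same Cre without deletion of *Ywhaz*, so the Cre itself was common to both groups. In both groups islets were dispersed after a night of recovery and dead cells were removed, and the libraries also held immune, vascular, and duct cells. Because the whole islet was sequenced, β cells were told from other cells by their transcripts and not by a sort. The data allow 3 questions to be asked of the family: which paralogs each cell type uses, how much of the family *Ywhaz* makes up in β cells, and whether any other paralog is higher where *Ywhaz* is lost.

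14-3-3 proteins are small adaptor proteins that work as dimers, of 2 like or unlike subunits, and bind phosphorylated serine or threonine motifs in a wide range of client proteins. By binding they hold transcription factors and coactivators in the cytoplasm, hold protein kinases in an inactive or active shape, and mask the proapoptotic protein BAD. The paralogs encode the isoforms ζ (*Ywhaz*), β (*Ywhab*), ε (*Ywhae*), γ (*Ywhag*), η (*Ywhah*), θ, also called τ (*Ywhaq*), and σ (*Sfn*, stratifin). Most tissues express several of them, and σ is best known from stratified and glandular epithelia, where p53 induces it. Because the binding groove is nearly the same in all isoforms, loss of 1 isoform can in principle be covered by others, which makes the levels of the remaining paralogs of interest in a knockout.

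The paralogs lie on 7 separate loci, given here in GRCm38 with the GENCODE vM21 annotation. *Ywhaz* (ENSMUSG00000022285) spans chr15:36770770-36796929 on the minus strand. *Ywhab* spans chr2:163994960-164018588 on the plus strand, *Ywhae* chr11:75732869-75765845 on the plus strand, and *Ywhag* chr5:135908409-135934616 on the minus strand. *Ywhah* spans chr5:33018816-33027966 on the plus strand, *Ywhaq* chr12:21390071-21417637 on the minus strand, and *Sfn*, a gene of 1 exon, chr4:133600556-133602168 on the minus strand. Translated from the annotated transcripts, the proteins hold 245 (*Ywhaz*), 246 (*Ywhab*), 255 (*Ywhae*), 247 (*Ywhag*), 246 (*Ywhah*), 245 (*Ywhaq*), and 248 (*Sfn*) residues. The protein nearest to that of *Ywhaz* is that of *Ywhab*, with 86.9% of aligned residues identical. It is followed by *Ywhaq* (79.6%), *Ywhag* (76.4%), *Ywhah* (76.3%), *Sfn* (71.4%), and *Ywhae* (68.2%), so the ε isoform is the most distant from ζ. *Ywhag* and *Ywhah* form a pair of their own, with 87.0% identity.

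Exon 4 is shown because the study flanked it with LoxP sites. The study names no transcript, so the exon is counted here in the principal annotated transcript. It may differ from the exon that is flanked. Exon 4 of the 7 exons of the principal *Ywhaz* transcript lies at chr15:36776246-36776369 (GRCm38, minus strand) and is wholly coding. Its 124 bases leave a remainder of 1 when divided by 3, so removal of this exon would shift the reading frame. In the direction of transcription it reads:
*Ywhaz* exon 4: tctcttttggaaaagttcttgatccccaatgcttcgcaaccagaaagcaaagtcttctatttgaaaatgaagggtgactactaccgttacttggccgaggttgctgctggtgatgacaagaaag

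The last 20 whole codons of this exon and the homologous stretch of each other paralog are shown next, to make visible how like the genes are there. Capitals mark bases that differ from *Ywhaz*.
*Ywhaz*: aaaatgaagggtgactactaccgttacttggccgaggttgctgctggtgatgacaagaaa
*Ywhab*: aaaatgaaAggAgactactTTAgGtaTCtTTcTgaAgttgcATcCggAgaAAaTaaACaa
*Ywhae*: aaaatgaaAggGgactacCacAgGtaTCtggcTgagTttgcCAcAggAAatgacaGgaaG
*Ywhag*: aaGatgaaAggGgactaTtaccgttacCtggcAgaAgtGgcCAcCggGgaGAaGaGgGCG
*Ywhah*: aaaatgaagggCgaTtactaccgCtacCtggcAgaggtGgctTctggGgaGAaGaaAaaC
*Ywhaq*: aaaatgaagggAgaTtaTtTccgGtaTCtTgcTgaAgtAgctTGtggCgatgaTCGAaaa
*Sfn*: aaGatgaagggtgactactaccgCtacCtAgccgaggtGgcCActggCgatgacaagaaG

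Over these 60 bases *Sfn* differed from *Ywhaz* at 9 positions, *Ywhah* at 13, *Ywhae* at 16, *Ywhaq* at 18, *Ywhag* at 19, and *Ywhab* at 21. Fewer of the 20 encoded residues differed, since *Sfn* differed in 1 residue, *Ywhaq* in 3, *Ywhah* in 4, *Ywhae* and *Ywhag* in 5, and *Ywhab* in 6. The 3′ assay counts the poly(A) end of a transcript, not this exon. A *Ywhaz* UMI (unique molecular identifier, 1 per captured RNA molecule) therefore does not show whether exon 4 was in the transcript.

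Cells were clustered without the 14-3-3 genes among the variable genes, so that no cell type was defined by them, and a cluster was named from fixed marker genes. The names below stand for β cell–like clusters and so on. The 8 types with at least 10 cells in each library were β (5953 cells), α (807), δ (662), endothelial (951), stellate (339), macrophage (494), B (3335), and T cells (2157). Ductal (175 cells, 7 to 50 per library) and dendritic cells (280, 2 to 152 per library) were too few in a library to be tested and are described only. Other clusters stayed unnamed, so the named types do not cover all cells kept. A name required a median of at least 3500 UMIs and no other type with equal or stronger markers. The largest cluster of all was unnamed, with 5344 cells at a median of 2149 UMIs. It showed 3 of the β markers, and 3216 of its cells came from WT library 2. A cluster of 1434 cells led by *Ppy* and *Pyy* was also unnamed. B and T cells were very unequal between libraries, from 13 to 1718 and from 10 to 1421. Libraries held 74083947 to 98294915 UMIs, and the median UMIs per cell ran from 22418 to 41655.5 over the libraries in β cells, against 3867 to 5053 in B cells and 4558 to 5761.5 in T cells. Every library pair shared 7 to 27 barcodes, 0.159% to 0.437% of the smaller library. In a chi-square comparison of gene sums, WT library 1 stood farther from the other WT libraries (79.2 and 81.7 per degree of freedom) than those stood from each other (10.2), and KO library 2 stood farther from the other KO libraries (26.2 and 23.5) than those from each other (9.26). WT library 1 held 187 of the 562 β cells of a cluster led by *Dnah12* and the heat-shock genes *Hspa1a* and *Hspa1b*, with a median of 2352 detected genes per cell. In bulk sums of this kind, fewer transcripts per cell and a different mix of cells within a type cannot be told apart.

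Levels are given as CPM computed over the UMIs of genes other than the hormone genes *Ins1*, *Ins2*, *Iapp*, *Gcg*, *Sst*, *Ppy*, and *Pyy*, called hormone-free CPM below. Hormone transcripts took 44.1% to 51.9% of β cell UMIs, and this scale, chosen after the data were seen, keeps them from diluting every other gene of an endocrine cell. Each 3′ molecule is counted once whatever the length of its transcript, so levels of different paralogs can be set side by side, although capture may differ between their 3′ ends.

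In WT β cells the family was led by *Ywhae* and *Ywhaq*, with *Ywhaz* the third paralog. *Ywhae* gave 30.1 ± 0.917% of all 14-3-3 UMIs (SD, n = 3), *Ywhaq* 24.6 ± 1.15%, *Ywhaz* 16.8 ± 0.434%, and *Ywhab* 11.2 ± 0.677%. These ranges did not overlap between neighbours in the order. *Ywhag* (8.55 ± 0.403%) and *Ywhah* (8.46 ± 0.537%) could not be ordered, and *Sfn* was 0.36 ± 0.150%. α and δ cells kept the same leaders. In α cells *Ywhae* was 36.1 ± 0.545% and *Ywhaq* 22.4 ± 0.521%, and *Ywhaz*, at 11.5 ± 0.573%, lay in a range that overlapped that of *Ywhab* (11.9 ± 0.401%). In δ cells *Ywhae* was 32.7 ± 2.19%, *Ywhaq* 23.2 ± 0.275%, and *Ywhaz* 15.2 ± 1.34%. A *Ppy*-led cluster seen at a finer clustering (372 cells) had *Ywhae* at 33.3 ± 1.90% and *Ywhaq* at 27.0 ± 0.991%.

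The nonendocrine cells divided the family differently. In endothelial cells *Ywhaz* (24.2 ± 2.71%), *Ywhae* (21.1 ± 2.22%), and *Ywhab* (19.5 ± 0.672%) were near each other, and each range overlapped the next. Stellate cells had *Ywhae* at 28.3 ± 3.46%, *Ywhaz* at 22.5 ± 4.31%, and *Ywhab* at 18.1 ± 4.03%, again with overlapping ranges. Macrophages were the only tested type in which *Ywhah* came among the leading paralogs, at 21.1 ± 3.79%, in a range that overlapped those of *Ywhae* (24.6 ± 1.82%) and *Ywhab* (18.6 ± 1.73%). Dendritic cells held a like share of *Ywhah* (22.1 ± 3.20%). In WT B and T cells *Ywhaz* led, with 30.7 ± 4.07% and 30.3 ± 2.28%, above *Ywhae* (19.0 ± 3.62% and 19.8 ± 1.29%) in all 3 WT libraries of each. WT library 3 held only 29 B cells with 106 14-3-3 UMIs and 10 T cells with 60. The lead was not kept in KO T cells, where *Ywhaz* (19.2 ± 4.25%) lay below *Ywhae* (24.9 ± 1.89%). In KO B cells the ranges of *Ywhaz* (23.6 ± 7.62%) and *Ywhae* (20.2 ± 7.41%) overlapped. WT B cells also took 11.6 ± 2.64% of the family from *Sfn*. Ductal cells stood apart, with *Sfn* at 23.7 ± 4.74%, *Ywhae* at 22.3 ± 2.50%, and *Ywhaz* at 17.7 ± 1.58%, of which those of *Sfn* and *Ywhae* overlapped.

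**Figure D1:**
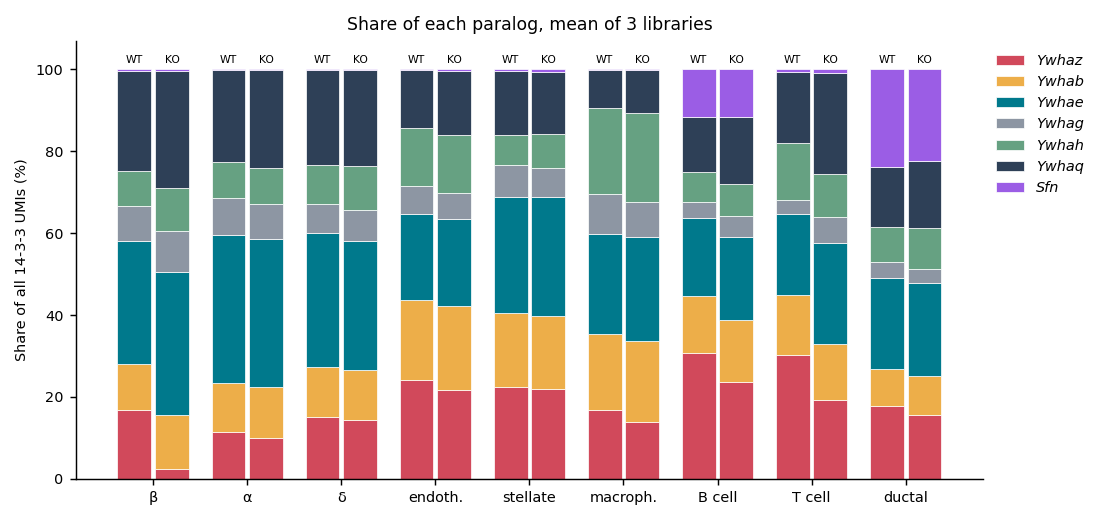
Stacked bars give the share of each of the 7 paralogs in all 14-3-3 UMIs (%, mean of 3 libraries) for 9 cell types, WT beside KO. *Ywhaz* shrinks from 16.8% to 2.28% in β cells, and *Sfn* is wide only in B cells (11.6% in WT) and ductal cells (23.7% in WT).

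A single number for how evenly the paralogs were used is the effective number of paralogs, the reciprocal of the sum of squared shares, which is 7 for equal use. It was 4.85 ± 0.0461 in WT β cells, 4.47 ± 0.0412 in α cells, and 4.69 ± 0.244 in δ cells. In endothelial cells it was 5.37 ± 0.107, in macrophages 5.37 ± 0.0438, in B cells 5.23 ± 0.300, and in ductal cells 5.61 ± 0.245. In T cells it was 4.85 ± 0.198 and in stellate cells 4.93 ± 0.204. The WT library ranges of β and α cells lay below those of endothelial cells, macrophages, B cells, and ductal cells, whereas T and stellate cells overlapped with β cells. In KO β cells the number was 4.11 ± 0.0632.

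Summed over the 7 paralogs, the level of the family was 1501, 1836, and 1770.4 hormone-free CPM in WT β cells (libraries 1 to 3). It was 2121 ± 46.5 in endothelial cells, 1897 ± 217 in stellate cells, 1725 ± 59.9 in δ cells, 1570 ± 52.0 in macrophages, and 1500 ± 202 in α cells. T cells (1135 ± 129) and B cells (1019 ± 54.5) had the least, and in ductal cells the WT libraries held 2749, 2714, and 3043. Ordered by their means, with β cells between δ cells and macrophages, the libraries of each tested type overlapped with those of the next.

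*Ywhaz*, the targeted gene, was highest among the tested types in WT endothelial cells, at 561, 464, and 513 hormone-free CPM. WT stellate cells had 589, 357, and 352, T cells 320.0, 309, and 403, and B cells 329, 265, and 345. WT β cells had 260.0, 307, and 292, close to macrophages (270.4, 258, and 258) and δ cells (240.4, 249, and 296). α cells were lowest, at 139, 199, and 184, and all 3 lay below every δ and β library. From endothelial cells down to δ cells, each type overlapped with the next.

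*Ywhab*, the paralog nearest to *Ywhaz* in sequence, was high in endothelial cells (399, 431, and 408 in WT libraries 1 to 3). It was 297, 325, and 393 in stellate cells and 314, 301, and 259 in macrophages. β cells had 156, 215, and 200.2 and α cells 145, 201, and 189. The 3 nonendocrine types thus lay above all endocrine libraries, whereas B cells (127, 140.1, and 162) lay in the range of the endocrine cells or below it.

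*Ywhae*, which encodes the ε isoform, was the most abundant paralog of the endocrine cells. Its level was 436, 558, and 545 in WT β cells, 457, 589, and 579 in α cells, and 506, 609.9, and 579 in δ cells. Stellate cells reached 522, 525, and 549. T cells (206, 232, and 233) and B cells (149, 229.5, and 203) lay below every library of the other tested types. *Ywhaq*, the θ isoform, was likewise low in lymphocytes. Among the tested types it was highest in β cells (387, 431, and 432) and δ cells (380.1, 408, and 416). The *Ppy*-led cluster (430 ± 23.3) and ductal cells (415 ± 16.7), which were not tested, had like levels. *Ywhaq* was also low in macrophages, at 136, 151, and 149.

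*Ywhag* and *Ywhah*, the pair of near relatives, went different ways. *Ywhag* was 135, 155, and 145 in WT β cells and differed little in α cells (128, 151, and 131), δ cells (130.5, 112, and 126), and endothelial cells (132, 149, and 155). Stellate cells had 242 in WT library 1 and 112 and 100.1 in the others. B cells (29.6, 53.2, and 40.6) and T cells (38.1, 50.2, and 21.2) lay below every other tested type. *Ywhah* was 119, 165, and 149.7 in WT β cells but 385, 254, and 356 in macrophages and 298, 278, and 314 in endothelial cells, and these types lay above all WT libraries of every other tested type. B cells had the least, at 73.6, 82.1, and 60.9.

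*Sfn* was nearly absent from islet endocrine cells. WT β cells held 7.89, 4.22, and 5.93 hormone-free CPM, from 137, 56, and 105 UMIs. α cells held 1.84, 2.03, and 5.12 and δ cells 4.20, 1.44, and 3.30, each from at most 10 UMIs in a library. B cells held 127, 87.0, and 142, from 141, 639, and 14 UMIs, and ductal cells 587, 561, and 888. T cells held 8.33, 9.94, and 0, from 7, 23, and 0 UMIs, where a count of 0 allows up to 63.6. *Sfn* was thus a paralog of B and ductal cells in these islets.

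**Figure D2:**
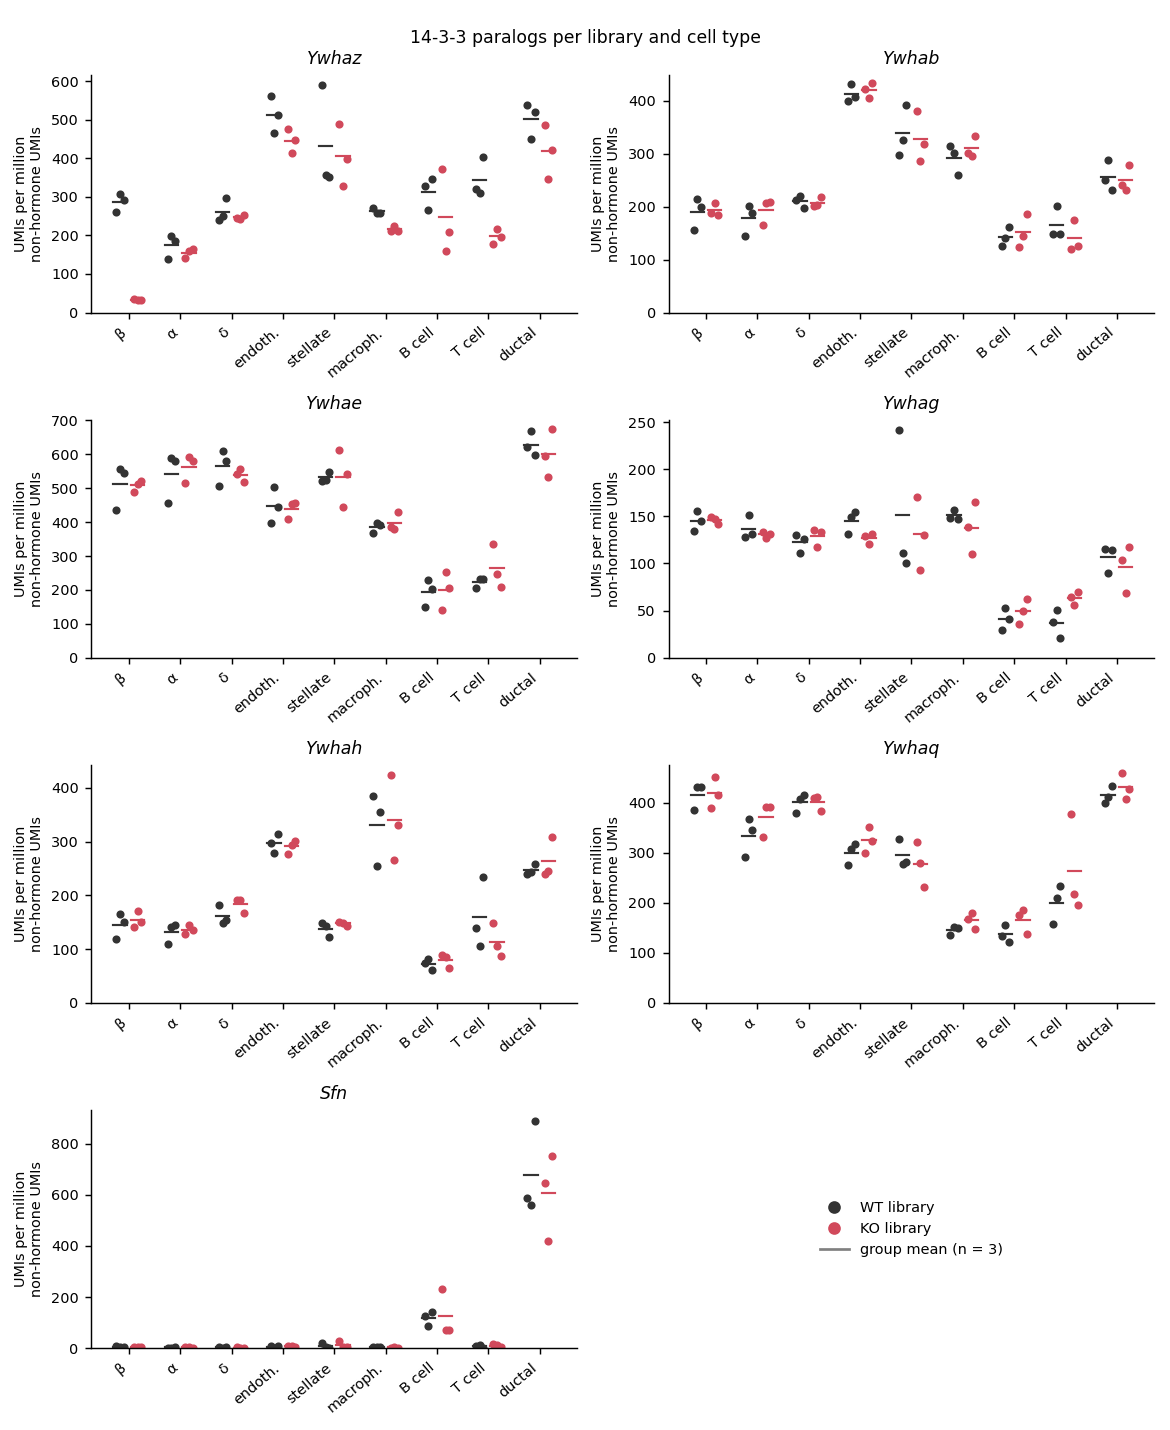
Each panel shows 1 paralog in 9 cell types, in hormone-free CPM (linear axis from 0). Points are libraries (black WT, red KO) and lines are group means of 3. *Ywhaz* separates WT from KO in β cells (260.0 to 307 against 31.8 to 33.9), and *Sfn* stands out in B and ductal cells.

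To test which paralogs each type held more or less of than β cells, the WT sums of the 8 types were fitted together in edgeR with library as a block, and a paralog was called where the adjusted p was under 0.05 and the log2 fold change was beyond 0.1 in either direction (TMM scale, all UMIs). All 7 paralogs passed the filter on low counts, *Sfn* only through B cells, the 1 tested type in which over 15% of WT cells held a UMI of it (34.0 ± 5.19%, against 8.64 ± 4.11% of β cells). Of 49 comparisons, 22 were called, 13 higher and 9 lower than in β cells. *Sfn* in B cells is among the 13, but the filter let *Sfn* in by its level there. That call is therefore no result of the test. The types share the same 3 libraries, and many genes differ between such types: 31.4% of all genes tested were called in α cells, 32.1% in δ, 68.8% in endothelial, 61.5% in stellate, 64.8% in macrophage, 65.4% in B, and 57.4% in T cells. Against this background, 1 of 7 paralogs was called in α cells and 1 of 7 in δ cells, 3 in endothelial and 2 in stellate cells, and 5 each in macrophages, B cells, and T cells. The 5 of B cells include *Sfn*. With 7 members these counts cannot be told from the shares of all genes.

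α cells held less *Ywhaz* than β cells, at −0.72 on the log2 scale (SE 0.18, adjusted p = 0.0027), and without TMM, the scaling between libraries, the value was −0.28 and did not pass. The other 6 paralogs did not pass in α cells, with *Ywhaq* at −0.32 (95% interval −0.60 to −0.04, adjusted p = 0.072). In δ cells *Ywhaz* was at −0.22 (−0.58 to 0.14), and only *Sfn* was called (−1.06, SE 0.41, adjusted p = 0.049), on 16 UMIs in all. This *Sfn* call was lost without any 1 of the WT libraries, and at Leiden resolution 2 the value was 0.40.

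Endothelial cells exceeded β cells in *Ywhab* (1.37, SE 0.14), *Ywhah* (1.28, SE 0.17), and *Ywhaz* (1.08, SE 0.17). Stellate cells exceeded them in *Ywhab* (1.01, SE 0.14) and *Ywhaz* (0.80, SE 0.18), while their *Ywhah* (0.18, −0.21 to 0.57) did not pass. Macrophages had the largest *Ywhah* difference, 1.78 (SE 0.18), and also more *Ywhab* (1.21, SE 0.14), *Ywhag* (0.64, SE 0.20), and *Ywhaz* (0.46, SE 0.18, adjusted p = 0.027). They had less *Ywhaq* (−0.94, SE 0.14). The *Ywhaz* call in macrophages was lost without any 1 of the WT libraries (0.39 to 0.49), and that of *Ywhag* without WT library 3 (0.62).

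B and T cells shared a pattern of less *Ywhag*, *Ywhae*, and *Ywhaq*. *Ywhag* was at −1.01 (SE 0.23) in B cells and −1.36 (SE 0.25) in T cells. *Ywhae* was at −0.74 (SE 0.14) and −0.86 (SE 0.15), and *Ywhaq* at −0.85 (SE 0.15) and −0.80 (SE 0.15). *Ywhaz* was higher in both, at 0.75 (SE 0.18) and 0.52 (SE 0.19). The *Ywhaz* call in T cells was lost without any 1 of the WT libraries (0.44 to 0.55), and that of *Ywhaq* in T cells without TMM (−0.36). *Sfn* in B cells was at 4.93 (SE 0.24), which is given as a description, since the gene was tested only because it was high there. In T cells *Sfn* was called at 1.18 (SE 0.39, adjusted p = 0.011) on 30 UMIs, and without WT library 2 it was at 0.35 and did not pass.

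These directions depend on the scale. Without TMM the median of all genes moved up by 0.14 (B cells) to 0.63 (endothelial cells) on the log2 scale, and 34 member comparisons were called, 28 higher and 6 lower. Among all genes called, the share called higher then went from 39.0% to 81.8% in α cells, from 45.3% to 92.8% in δ cells, from 48.1% to 69.4% in endothelial, from 48.1% to 74.9% in stellate, from 47.3% to 59.1% in macrophage, and from 40.7% to 61.3% in T cells. Of the 22 calls, *Sfn* in B cells included, 19 remained with the same sign on that scale, and 21 remained with the hormone genes left out. In the KO libraries, with *Ywhaz* left aside, 15 of 16 remained with the same sign. *Sfn* in B cells, which is no result of the test, is among the 16.

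**Figure D3:**
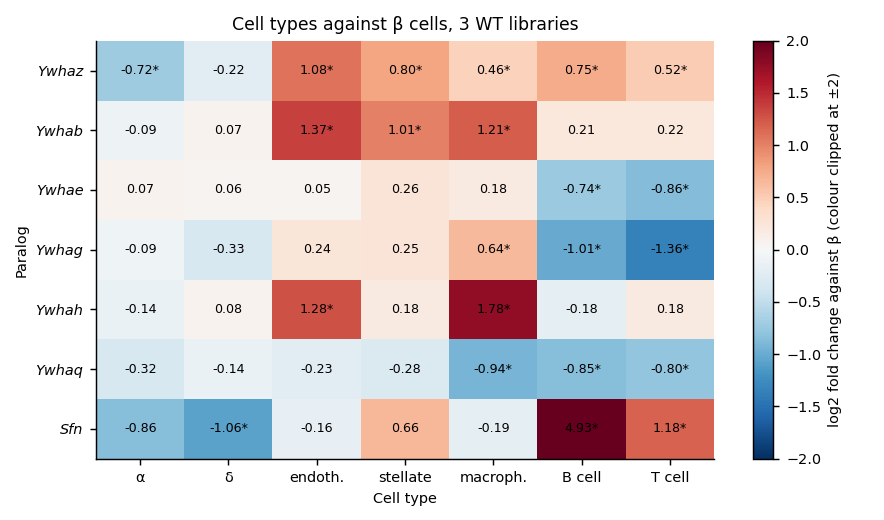
Heat map of the log2 fold change of each paralog (rows) in each cell type (columns) against β cells, in the 3 WT libraries, from edgeR on the TMM scale. An asterisk marks a call, and colour is clipped at ±2. *Ywhah* in macrophages is 1.78. *Sfn* in B cells is 4.93, which is a description only, since the filter let *Sfn* in by its level there.

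Levels of the members across the 8 types can be set against each other, as a description over types that share libraries. CPM in this paragraph is over all UMIs and not hormone-free. Hormone transcripts therefore lower every other gene of an endocrine type together, which can by itself make profiles alike. The part of this in the values below was not tested. *Ywhae* and *Ywhag* were the most alike (Pearson r = 0.92 of mean log2(CPM + 1) over 8 types), followed by *Ywhab* and *Ywhah* (0.83) and *Ywhaz* and *Ywhab* (0.78). *Ywhaz* had no such likeness with *Ywhae* (0.08) or *Ywhaq* (0.02). Among 6700 other genes with a mean of at least 20 CPM, the genes most like *Ywhaz* over these types were *Usp1* (0.995), which encodes a ubiquitin protease of DNA repair, *Lsm14a* (0.98), which encodes a processing-body RNA-binding protein, and the transcription factor gene *Bhlhe40* (0.98). For *Ywhab* they were the proteasome subunit gene *Psmb7* (0.99), *Gm16286* (0.98), and the G protein γ subunit gene *Gng5* (0.98). For *Ywhae* they were the translocon-associated *Ssr2* (0.98), the ubiquitin-conjugating enzyme gene *Ube2e3* (0.97), and *Jkamp* (0.97). For *Ywhag* they were *Dnajc11* (0.99), the Rab GTPase gene *Rab1a* (0.98), and the myosin gene *Myo9a* (0.98). For *Ywhah* they were *Card19* (0.98), the growth factor gene *Pdgfb* (0.97), and the small GTPase gene *Rap1b* (0.97). For *Ywhaq* they were the Golgi SNARE gene *Bet1l* (0.99), the phosphatase methylesterase gene *Ppme1* (0.99), and *Wasl* (0.99), which encodes N-WASP. For *Sfn* they were the B cell genes *Iglc1* (0.996), an immunoglobulin light chain, *Vpreb3* (0.99), and *Fcrla* (0.99). With 8 points and 6700 genes, such values mark a similar profile and no more.

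Loss of *Ywhaz* in KO β cells was plain in every library. With all β cells kept, *Ywhaz* was at 260.0, 307, and 292 hormone-free CPM in WT libraries 1 to 3 and at 33.9, 31.8, and 33.6 in KO libraries, with no overlap. The log2 fold change was −3.09 (SE 0.08, 95% interval −3.27 to −2.92, adjusted p = 6.9e-07), and leaving out any 1 library kept it between −3.14 and −3.05. *Ywhaz* was the 1 gene called of 9333 tested (0.0107%). With the replicate number as a block, 13 genes were called and *Ywhaz* stayed at −3.09. Its share of the family fell from 16.8 ± 0.434% to 2.28 ± 0.175%. Of WT β cells, 89.6%, 86.7%, and 90.2% had a *Ywhaz* UMI, with a mean of 5.20 ± 0.60 UMIs per cell. Of KO β cells, 41.2%, 30.8%, and 42.9% had at least 1, with a mean of 0.536 ± 0.127. A cell with 3 or more was common in WT (70.3 ± 3.45%) and rare in KO (2.75 ± 1.44%). No cell type lacked *Ywhaz*, so the share of cells that free RNA alone would give could not be measured.

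The 6 other paralogs were then compared between all WT β cells and KO β cells without a *Ywhaz* UMI (715, 692, and 620 cells). This selection took slightly shallower cells, with median UMIs of 27398, 21730.5, and 28820.5 against 29504, 22418, and 30753 in all KO β cells. None of the 5 paralogs that passed the filter was called, beside 0 of 9304 genes tested (0%). The unadjusted p was below 0.05 for 459 genes, none of them a paralog, and DESeq2 called 5 genes, none of them a paralog. With the replicate block 13 genes were called, again no paralog.

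Their values were close to WT in each library. *Ywhab* was at 156, 215, and 200.2 hormone-free CPM in WT and 185, 209, and 188 in KO. *Ywhae* was at 436, 558, and 545 in WT and 499, 513, and 529 in KO. *Ywhaq* was at 387, 431, and 432 in WT and 399, 453, and 417 in KO. In these paralogs the KO libraries lay within or across the WT range. *Ywhag* was at 135, 155, and 145 in WT and 145, 144, and 138 in KO, and *Ywhah* at 119, 165, and 149.7 in WT and 142, 167, and 153 in KO. *Sfn*, which did not pass the filter, was at 7.89, 4.22, and 5.93 in WT and 4.10, 4.32, and 4.91 in KO. All 6 overlapped between the groups, and WT library 1 was the lowest in each but *Sfn*. How many of all genes overlap in this way was not counted.

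The intervals, from the fit without the replicate block, bound how far the paralogs could have moved. The log2 fold change was 0.06 for *Ywhab* (SE 0.11, 95% interval −0.20 to 0.31, adjusted p = 0.95), 0.03 for *Ywhae* (SE 0.09, −0.18 to 0.24, adjusted p = 0.96), and −0.00 for *Ywhag* (SE 0.07, −0.17 to 0.16, adjusted p = 0.99). It was 0.12 for *Ywhah* (SE 0.12, −0.15 to 0.38, adjusted p = 0.90) and 0.05 for *Ywhaq* (SE 0.08, −0.14 to 0.24, adjusted p = 0.94). In WT β cells, *Ywhaz* UMIs amounted to 20.2 ± 0.629% of those of the other 6 paralogs together. An equal rise of all 6 that made up for them in number would be 0.27 on the log2 scale. This value lies above the intervals of *Ywhae*, *Ywhag*, and *Ywhaq* and inside those of *Ywhab* and *Ywhah*. A rise of that size was therefore outside the measured interval for 3 of the paralogs and could not be told from no change for the other 2.

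Summed levels are given as a description, with no test. The 6 other paralogs together held 1241, 1529, and 1478 hormone-free CPM in WT β cells and 1373, 1490.2, and 1430.0 in KO β cells without a *Ywhaz* UMI. The whole family held 1501, 1836, and 1770.4 in WT and 1395.5, 1525, and 1453 in all KO β cells, so that KO library 2 lay above WT library 1. Without the heat-shock cluster, WT library 1 held 1548 and the KO libraries 1403, 1528, and 1456, and the groups no longer overlapped.

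Composition within the 6 others differed by less than the SD of the WT libraries, but for *Ywhah* and *Sfn* by more than the smaller SD of the KO libraries. *Ywhae* made up 36.2 ± 0.916% of them in WT and 35.9 ± 1.32% in KO, *Ywhaq* 29.5 ± 1.51% and 29.5 ± 0.760%, and *Ywhab* 13.4 ± 0.757% and 13.6 ± 0.438%. *Ywhag* made up 10.3 ± 0.539% and 9.95 ± 0.496%, *Ywhah* 10.2 ± 0.610% and 10.7 ± 0.429%, and *Sfn* 0.44 ± 0.183% and 0.31 ± 0.0285%. All 6 shares overlapped between the groups (2-sided exact permutation tests, p = 0.3 to 1, smallest Benjamini-Hochberg value 1, where 3 against 3 cannot go below p = 0.1). *Ywhah* had the smallest p, with a difference of 0.56 percentage points (SE 0.43), which was 0.27 without WT library 1 and 0.88 without WT library 2. The groups no longer overlapped for *Ywhah* and *Sfn* (−0.21) without WT library 2, nor for *Ywhag* (−0.62) without KO library 1. Each then had an exact permutation p of 0.2, the smallest that 2 against 3 libraries allow. How often other genes separate in such a split was not counted. Within same-numbered pairs *Ywhah* was higher in KO in 3 of 3 and *Ywhag* higher in 0 of 3. Each had an exact p of 0.25, the smallest that 3 pairs allow.

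**Figure D4:**
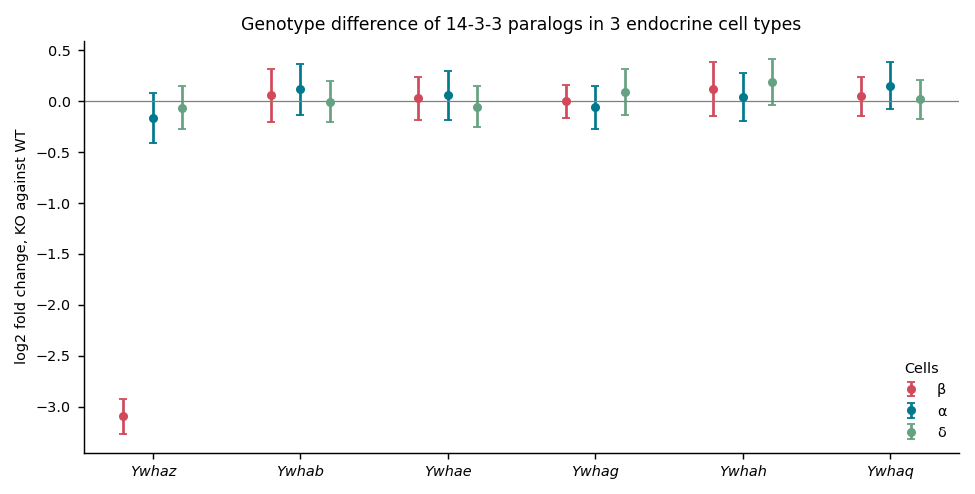
Log2 fold change, KO against WT, of 6 paralogs in β, α, and δ cells, with 95% intervals (edgeR, sums of 3 WT and 3 KO libraries; for β cells, *Ywhaz* from all KO cells and the others from KO cells without a *Ywhaz* UMI). *Ywhaz* in β cells is at −3.09, and the other intervals include 0.

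In the 7 other cell types, in which *Ins1* is not known to be active, no paralog was called. The share of all genes called was 0% in α, endothelial, stellate, B, and T cells, 0.0211% in δ cells (2 genes), and 0.0138% in macrophages (1 gene). Unadjusted p under 0.05 was reached by 337 genes in α, 265 in endothelial, 178 in stellate, 174 in B, and 442 in T cells, and DESeq2 called no paralog either. *Ywhaz* was at 140.5, 160.5, and 166 hormone-free CPM in KO α cells and at 245, 242, and 254 in KO δ cells, each within or across its WT range. Its log2 fold change was −0.16 in α cells (95% interval −0.41 to 0.08), −0.06 in δ cells (−0.28 to 0.15), and −0.18 in endothelial cells (−0.45 to 0.09). It was −0.04 in stellate cells (−0.69 to 0.62), −0.22 in macrophages (−0.49 to 0.04), −0.52 in B cells (−1.15 to 0.10), and −0.72 in T cells (−1.22 to −0.22, unadjusted p = 0.0077, adjusted p = 0.28). All 7 values were below 0, and none passed the test.

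*Ywhaz* in T cells was at 320.0, 309, and 403 in WT and 178, 218, and 197 in KO, and its share of the family was 30.3 ± 2.28% and 19.2 ± 4.25%. The 10 β cell markers were all detected in T cells of each library and all 10 had a higher mean in KO. They summed to 62975 to 117337 CPM in WT T cells and 137348 to 406512 in KO T cells, and *Ins2* in KO library 1 (18 T cells) was at 90.7% of the level in its β cells. In B cells *Ywhaz* was at 329, 265, and 345 in WT and 371, 159.6, and 208 in KO, which overlapped, and 8 of 10 β cell markers had a higher mean in KO (19072 to 91940 against 62321 to 168741 CPM, with *Trpm5* at 0 in WT library 3 and *Nkx6-1* and *Slc2a2* at 0 in KO library 1). In macrophages *Ywhaz* was at 270.4, 258, and 258 in WT and 212, 226, and 212 in KO, and 10 of 10 markers had a higher mean in KO (9950 to 38423 against 21451 to 79416 CPM). In stellate cells 0 of 10 had a higher mean in KO. The part of these β cell transcripts in the *Ywhaz* values was not tested. At Leiden resolution 2, where a second cluster of 1052 cells, with a median of 31993.5 UMIs and led by *Rbp4*, *Sst*, and *Pyy*, joined the δ cells, *Ywhaz* was called lower in KO δ cells (−0.98, adjusted p = 0.0028), and this was the only member call in another type under any alternative run.

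The difference between cell types was tested directly with limma-voom over β, α, and δ sums. With all KO β cells, the *Ywhaz* difference was 2.94 less negative in α cells than in β cells (SE 0.12, adjusted p = 1.9e-12) and 3.04 in δ cells (SE 0.12, adjusted p = 3.8e-13), and *Ywhaz* was the 1 gene called of 10179 (0.00982%) in each. For *Ywhab*, *Ywhae*, *Ywhag*, *Ywhah*, and *Ywhaq* none was called, beside 0 of 10165 genes, with terms of −0.08 to 0.11 in α cells and −0.09 to 0.10 in δ cells. α and δ cells come from the same islets as the β cells and share their libraries.

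How widely a paralog is found from cell to cell was compared after each cell was thinned to 5000 UMIs, with shallower cells left out (133 of 2652 WT and 80 of 3301 KO β cells, but 844 of 1518 WT B cells). In WT β cells, *Ywhae* was seen in 69.3 ± 7.30% of cells, *Ywhaq* in 63.3 ± 5.21%, *Ywhaz* in 48.4 ± 5.65%, and *Ywhab* in 38.3 ± 4.32%. *Ywhah* followed with 32.8 ± 5.11%, *Ywhag* with 29.7 ± 4.58%, and *Sfn* with 1.34 ± 0.404%. In KO β cells *Ywhaz* was seen in 9.44 ± 0.546%, and the means of the others differed from WT by less than the WT SD, with *Ywhae* at 72.5 ± 1.00% and *Ywhaq* at 67.2 ± 2.005%. A thinned WT β cell showed 2.83 ± 0.311 of the 7 paralogs and a KO β cell 2.56 ± 0.0253, of which 2.35 ± 0.258 and 2.46 ± 0.0225 were other than *Ywhaz*. Hormone UMIs take up much of the 5000 in an endocrine cell. α cells showed 3.11 ± 0.212 paralogs, δ cells 3.54 ± 0.127, endothelial cells 4.61 ± 0.0551, and ductal cells 5.20 ± 0.133.

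*Sfn* was seen in 84.5 ± 10.1% of thinned WT ductal cells and 29.0 ± 7.76% of WT B cells, against 1.34 ± 0.404% of β, 1.87 ± 1.73% of endothelial, and 0.278 ± 0.481% of α cells. The thinned B cells numbered 98, 573, and 3 in WT libraries 1 to 3. Unthinned, *Sfn* was seen in 95.4 ± 4.12% of ductal cells (median 22796 to 30773 UMIs in WT libraries) and 34.0 ± 5.19% of B cells (3948 to 5053 UMIs). Within WT B cells, the main cluster, led by *Ighd*, *Bank1*, and *Fcmr* (1463 cells), held *Sfn* at 92.0 CPM of all UMIs. The small cluster led by *Ighg2c*, *Igha*, and *Ighg1*, the genes of antibody-secreting cells (55 cells), held it at 40.8 CPM. *Ywhaz* was lower in the small cluster too (266 and 162 CPM). As a share of all 14-3-3 UMIs, *Sfn* was 9.45% in the main and 6.53% in the small cluster. In KO B cells *Sfn* was at 56.0 and 85.7 CPM (6.87% and 13.5% of 14-3-3 UMIs). The small cluster came almost wholly from library 2 of each genotype (54 of 55 WT and 106 of 106 KO cells), so that its values rest on 1 library each.

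**Figure D5:**
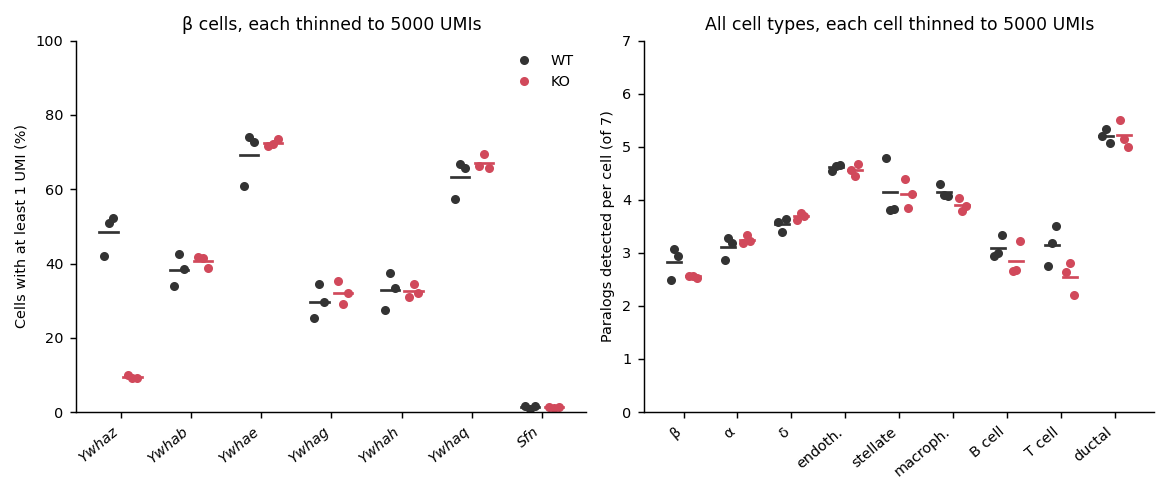
Left, share of β cells (%) with at least 1 UMI of each paralog after thinning to 5000 UMIs; right, number of paralogs seen per thinned cell in 9 cell types. Points are libraries (black WT, red KO) and lines are means of 3; *Ywhaz* is at 48.4% in WT and 9.44% in KO β cells.

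Transcripts of known 14-3-3 clients were examined last, because the adaptors act on the proteins and the question here is only whether the client genes moved. Of 32 client genes listed, 22 passed the filter in β cells and 0 were called, beside 0% of all genes. Their median log2 fold change was −0.03, beside 0.00 for all genes tested, with 9 above and 13 below 0. *Bad*, the proapoptotic client, was at 17.7, 19.5, and 19.6 CPM of all UMIs in WT and 21.8, 22.8, and 21.4 in KO, and its log2 fold change came to 0.22 (SE 0.09, unadjusted p = 0.036, adjusted p = 0.88). *Foxo1*, a transcription factor that 14-3-3 proteins hold in the cytoplasm, was at 0.02 (SE 0.08). *Tbc1d4*, a regulator of glucose transporter traffic, was at −0.03 (SE 0.16), and *Mlxipl*, which encodes the glucose-responsive factor ChREBP, at 0.09 (SE 0.14). *Tph1*, which encodes a tryptophan hydroxylase, was below the filter at 0 to 0.166 CPM. An unadjusted p under 0.05 was reached by 4 of the 22, beside 459 of the 9304 genes tested in the same fit. With the replicate block it was reached by 6 of the 22. Whether the list as a whole differs from all genes was not tested. The other 3 client genes with an unadjusted p under 0.05, named after their values were seen, were *Hdac5* (−0.42), *Sik2* (0.30), and *Th* (−0.57), each with an adjusted p of 0.88.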

How the data were processed

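Islet cells were profiled by 10× 3′ single-cell RNA-Seq. The authors' deposited values are raw UMI counts per gene and barcode, in 1 matrix per library; Cell Ranger 6.0.2, Seurat, and the mm10 genome are named in the submitters' processing notes. All 6 libraries (74083947 to 98294915 UMIs) were used.

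Cells with under 500 genes or over 10% mitochondrial UMIs were removed, and doublets were called with Scrublet, whose automatic threshold worked in KO library 2 only, so that the top scores were removed elsewhere (83 to 551 barcodes per library in all). Cells were clustered with scanpy 1.11.5 and leidenalg 0.10.2 (resolution 1), with the 14-3-3 genes, *Ins1*, *Ins2*, and mitochondrial and ribosomal protein genes left out. Clusters were named from marker lists, which can differ from the names of the study.

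UMIs were summed per library and type. Genes with a UMI in over 15% of cells of either genotype, or of at least 1 compared type, were tested with edgeR 4.0.16 (quasi-likelihood, TMM, Benjamini-Hochberg adjustment over all genes tested), and genotype by type terms with limma 3.58.1. A call needs an adjusted p under 0.05 and an absolute log2 fold change over 0.1. Alternatives included DESeq2 1.42.0, no filter, leaving out each library, and the replicate number as a block. Scripts were tested on simulated data. Same-numbered WT and KO libraries deviated together in β cells (correlations 0.58, 0.51, and 0.30, all other pairs below 0). As deviations from a group mean sum to 0, values above 0 in some pairs bring values below 0 in others. The labels do not explain such a pairing. The main tests, with their SEs and intervals, did not use it. It entered only through the replicate block and the comparison of shares within same-numbered pairs. Members were named in every compared type and library. Of the clients, any called gene and *Bad*, *Foxo1*, *Tbc1d4*, *Mlxipl*, *Tph1*, and 1 gene that is not reported here were named, and for each member the 3 genes with the most similar profile. Members and lists were chosen with earlier results of these data known.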

Additional observations from a re-analysis of the deposited data

Results flagged for a closer look

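The genotype difference of *Ywhaz* differed between cell types by a test of the difference itself (limma-voom over β, α, and δ cell sums of 3 WT and 3 KO libraries). The difference in α cells minus that in β cells was 2.94 on the log2 scale (SE 0.12, 95% interval 2.68 to 3.19), and that in δ cells minus that in β cells was 3.04 (SE 0.12, 95% interval 2.79 to 3.28).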

How the results depend on the processing

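Loss of *Ywhaz* in β cells kept its sign and its call under every alternative run, the replicate block included (−3.09), while the count of genes called went from 1 to 6 with DESeq2, 5 with no filter, and 13 with the block. The comparison with KO β cells without a *Ywhaz* UMI gives no value for *Ywhaz*, since those cells hold none. The block changed no call of a member. With all KO β cells, *Ywhag* was at 0.026 and *Foxo1* at −0.018, opposite in sign to their values in cells without a *Ywhaz* UMI. Leaving out 1 library at a time, the sign turned in at least 1 case for *Ywhab* (−0.053 to 0.14), *Ywhae* (−0.057 to 0.087), *Ywhag* (−0.033 to 0.041), and *Ywhaq* (−0.024 to 0.095) in β cells. It also turned for *Ywhaz* in δ (−0.13 to 0.031) and stellate cells (−0.21 to 0.26), and for the clients *Foxo1* (−0.046 to 0.071), *Tbc1d4* (−0.17 to 0.068), and *Mlxipl* (−0.020 to 0.21). Differences in share among the 6 other paralogs ran from −0.26 to 0.49 percentage points for *Ywhab*, −0.79 to 0.49 for *Ywhae*, and −0.67 to 0.82 for *Ywhaq*, and kept their sign for *Ywhah* (0.27 to 0.88), *Ywhag* (−0.62 to −0.034), and *Sfn* (−0.21 to −0.028). Without the heat-shock cluster, an alternative chosen after seeing the data, that of *Ywhaq* was 0.27. At Leiden resolution 2, 1 member was called in the other types (*Ywhaz* in δ cells, −0.98), and *Sfn* in δ against β cells was at 0.40. Member calls between types numbered 34 without TMM, against 22. *Sfn* in δ cells was lost also with hormone genes left out (−1.01), without TMM (−0.41), in the KO libraries (−1.64), and with no doublet calls (−0.26). The call of *Ywhaz* was lost in macrophages with no filter (0.40) and in T cells with no doublet calls (0.32). The cause was not tested.

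Thinned to 2000 UMIs, WT cells showed 1.49 paralogs (β), 1.76 (α), 2.07 (δ), 2.78 (endothelial), 2.38 (stellate), 2.22 (macrophage), 1.54 (B), and 1.35 (T), and KO β cells 1.33. *Ywhaz* was then seen in 25.4% of WT and 3.85% of KO β cells, and *Sfn* in 19.1% of B, 0.623% of β, and 58.4% of ductal WT cells, since fewer UMIs per cell show fewer genes. Under the other alternatives 312 recomputed values kept direction and side of the threshold, 19 moved, 4 turned sign, 8 lost and 1 gained a call. With 1 library left out, 236 kept both, 24 turned sign, and 11 lost a call. B and T cells rest on as few as 13 and 10 cells in a library.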

Other observations

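*Zdhhc18*, which encodes a palmitoyltransferase, is the nearest gene to *Sfn* on the same strand, at a distance of 3131 bases. It was at 83.5, 52.7, and 64.2 CPM in WT B cells (libraries 1 to 3) and at 84.2, 78.7, and 59.4 in WT T cells, in which *Sfn* was at or near 0. In WT endothelial cells it was at 74.5, 58.3, and 77.0, and in WT ductal cells at 31.1, 37.2, and 24.2. *Zdhhc18* was thus high in types with and without *Sfn*.

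*Gm26836*, a lincRNA gene, overlaps *Ywhae* on the opposite strand, and *Gm4419*, an antisense gene, overlaps *Ywhaq*. *Doc2b*, which encodes a calcium sensor of exocytosis, lies 3121 bases from *Ywhae* on the opposite strand.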
